A study of Mus musculus with 6 samples.

Results

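The 250 regions described here are CG regions in introns without repeats. They were taken from a deposited list of differentially methylated regions by annotation alone, as CG regions with at least 1 intron entry and no exon, untranslated region (UTR) or repeat entry, outside chromosomes X and Y. They make up 250 of 880 listed CG regions and of 9707 listed regions in all cytosine contexts. The list compares single embryos of C57BL/6 background taken at the late blastocyst stage (embryonic day 4.5), which had been injected as fertilised eggs with sperm small RNAs at 2 ng/µl and collected about 108 h later. In 3 embryos (replicates 1, 2 and 4, called the normal group) the RNA came from normal males, and in 3 others (replicates 1, 3 and 4, called the depressed group) it came from males with stress-induced depression. Both groups were injected, and an uninjected control was not analysed here. Whole-genome bisulfite sequencing reads an unmethylated cytosine as thymine and a methylated one as cytosine. The level of a region is the authors' mean over a group, in percent. The file holds 0 columns of values per embryo, so a level has no spread, its read depth is unknown, and no difference could be weighed against the variation from embryo to embryo. Where a pair of levels is given as 1 value against another, the first is that of the depressed group.

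In mammals most DNA methylation sits on cytosines followed by guanine (CpG), and the bodies of genes, introns included, are usually methylated in differentiated cells. After fertilisation the genome loses much of its methylation and reaches a low point around the blastocyst, before it is methylated again at implantation. Introns carry no coding sequence, but they hold splice signals and many enhancers, which are short stretches that raise transcription of a gene when bound by transcription factors.

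The sequence of 1 region is shown, where it meets a promoter window of the RefSeq table used here (GRCm38, which is mm10). That table holds a window for 170 of the 213 member genes matched to RefSeq, but only 1 member region meets a window. The sequences of the other regions were thus not at hand and were not analysed here. The region shown also had the largest difference between the groups. The region shown lies on chromosome 10, 77827207 to 77827423, in an intron of Tspear and upstream of Krtap10-4, a keratin-associated protein gene on the minus strand. The stretch below covers 114 of its 217 bases (chr10:77827207-77827320, minus strand), from 250 to 137 bases upstream of the Krtap10-4 start, with CpGs in capitals.
Krtap10-4: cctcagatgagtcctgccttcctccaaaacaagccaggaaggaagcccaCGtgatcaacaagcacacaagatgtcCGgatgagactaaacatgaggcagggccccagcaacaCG
It holds 3 of the region's 4 CpGs. The region's level was 1.42% with depressed-male RNA and 91.0% with normal-male RNA, a difference of 89.5 percentage points. The whole promoter window of 250 bases before to 50 after the start holds 4 CpGs, against a median of 7 over 32851 windows of that length, of which 94.6% hold at least 1 CpG.

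Nearly all intronic regions were lower in the depressed group. Of the 250, 249 were lower and 1 was higher (99.6% lower, 95% exact binomial interval over regions 97.8 to 99.99%), beside 98.5% of all 880 CG regions. A share this close to that of all listed CG regions is not a result about introns. In the 249 lower regions the depressed level had a median of 5.04% (quartiles 2.51 and 9.30%) and ran from 0.452 to 30.6%. The normal level had a median of 71.2% (quartiles 65.8 and 75.6%) and ran from 23.5 to 91.0%. In the depressed group 124 of the 249 were under 5% (49.8%) and 244 were under 20% (98.0%). The shares over all 867 lower CG regions were 50.7 and 98.2%. In the normal group 224 were over 60% (90.0%, beside 87.4% of all lower CG regions) and 4 were under 50% (beside 35 of the 867). These shares, too, are close to those of the whole CG list.

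The median difference was 64.5 percentage points (quartiles 60.2 and 69.2). Among the 249 lower regions the highest depressed level, 30.6%, lay above only 1 of the normal levels, that of Ptma. Over all 867 lower CG regions the highest depressed level was 31.2% and the lowest normal level 9.69%. The regions were listed as differing between the groups, so a gap between the levels is built into the list. The depressed level was lower by at least 50 points in 235 of the 250 regions (94.0%), beside 89.2% of all CG regions, and by at least 60 points in 189 (75.6%), beside 67.8%. The smallest difference among the lower regions, 22.9 points, was that of Ptma, the 1 member whose entries include a CpG island. Such islands are CpG-dense stretches that are usually unmethylated.

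**Figure D1:**
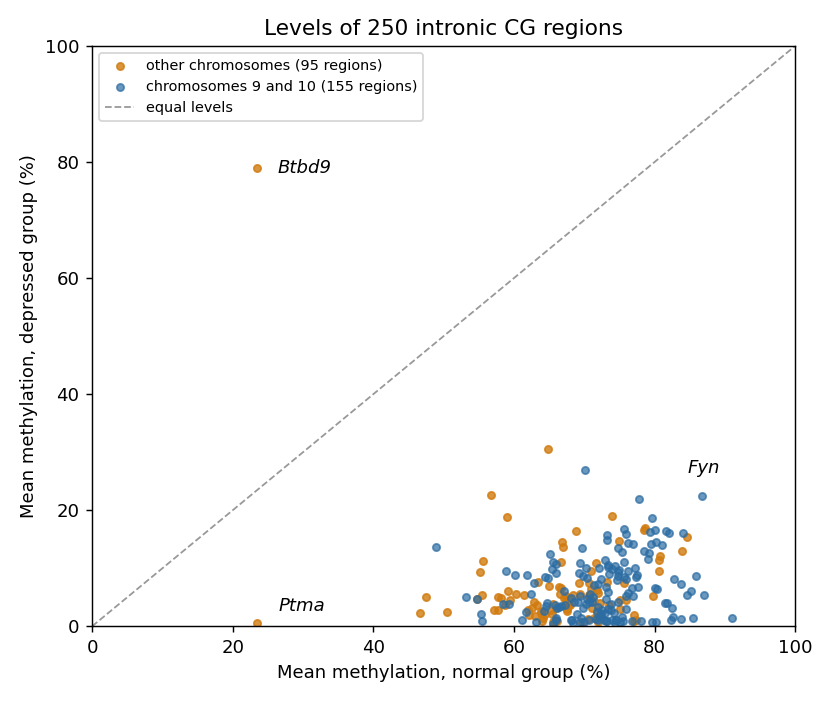
Each point is 1 of the 250 intronic CG regions, with the authors' mean level of the normal group on the x axis and of the depressed group on the y axis, both in percent; blue points lie on chromosomes 9 and 10, and the dashed line marks equal levels. Apart from Btbd9, all regions lie under the line, and all but Ptma among these form 1 cloud at 46.7% or more in the normal and 30.6% or less in the depressed group.

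The 1 region higher in the depressed group lay in an intron of Btbd9, which encodes a BTB domain protein (chromosome 17, 30508867 to 30508958, 92 bp, 9 CpGs). Its level was 79.0% with depressed-male RNA and 23.4% with normal-male RNA. Higher regions made up 1.48% of all CG regions, and 1 of 250 members was not set apart from that share by any test.

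The intronic regions, like the listed CG regions as a whole, were short and held few CpGs. The lower ones had a median length of 107 bp (quartiles 79.0 and 150.0 bp, range 51 to 1004 bp). They had a median of 5 CpGs, and 105 of the 249 had 4, the smallest number in the list. A further 74 had 5 CpGs, and 11 had 10 or more. CpG density had a median of 4.41 per 100 bp. Over all 867 lower CG regions the medians were 117 bp, 5 CpGs and 4.49 per 100 bp, and 319 regions had 4 CpGs. The 105 regions with 4 CpGs stood at 4.47% with depressed-male RNA and 73.4% with normal-male RNA (medians), while the 24 lower regions with 8 or more stood at 5.31% and 66.7%. A level over 4 CpGs rests on fewer cytosines, and read depth is unknown for all of them. Of the regions with 4 CpGs, 72.4% lay on chromosomes 9 and 10, beside 54.2% of the lower ones with 8 or more. The part of chromosome in this contrast was not tested.

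Levels were set beside those of the other large CG classes, 272 lower regions touching exons or UTRs and 333 lower regions in repeats outside exons. Medians were compared per autosome on the 17 autosomes that hold all classes, with an exact two-sided sign test adjusted over 6 tests by the Benjamini-Hochberg method. The normal level was higher in introns than in exons or UTRs on 9 of 17 autosomes (medians over regions 71.2 and 69.2%, exact sign test, adjusted p = 1), and the depressed level was higher on 9 of 17 (5.00 and 5.70%, adjusted p = 1). Against repeats the normal level was higher on 9 of 17 (71.2 and 70.3%, exact sign test, adjusted p = 1) and the depressed level on 10 of 17 (5.00 and 4.41%, adjusted p = 1). None of these 4 differences passed the test, which does not show that the classes are alike.

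CpG density came nearest to a difference. It was lower in introns than in exons or UTRs on 14 of 17 autosomes, with medians of 4.404 and 4.85 CpGs per 100 bp (exact sign test, p = 0.0127, adjusted p = 0.0764). The adjusted p was 9.16e-05 among regions of at most 300 bp, where introns were lower on 17 of 17 autosomes, 0.0141 with 1 region per 100 kb, and 0.0205 among regions with at least 6 CpGs. It was 0.128 with intron entries only, 0.135 with the stronger statistics, 0.211 without chromosomes 9 and 10, and 0.944 with a difference of at least 50 points, where introns were lower on 10 of 15 autosomes. Against repeats the density was higher on 7 of 17 autosomes (4.404 and 4.30, exact sign test, adjusted p = 1).

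**Figure D2:**
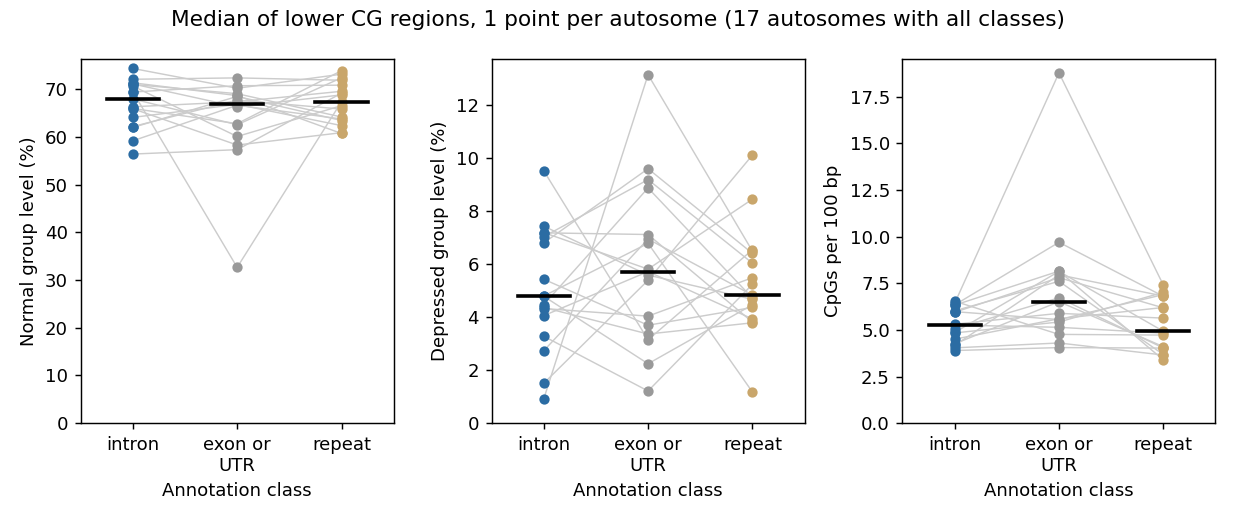
Each point is the median over the lower CG regions of 1 autosome, for introns, exons or UTRs, and repeats; the panels show the normal level (%), the depressed level (%) and CpGs per 100 bp, grey lines join an autosome's points, and black bars are medians over the 17 autosomes. The levels overlap in all panels, and the CpG density of introns lies under that of exons or UTRs on 14 of 17 autosomes.

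The intronic regions rarely overlapped listed regions of other cytosine contexts. Of the 249 lower regions, 2 overlapped a listed CHG or CHH region, where H is any base but G (0.803%, 95% exact interval 0.0974 to 2.87%). The same held for 39 of 272 lower regions touching exons or UTRs (14.3%, interval 10.4 to 19.1%) and for 1 of 333 in repeats (0.3003%). These shares were not tested against each other. Both intronic cases lay in 1 intron on chromosome 5 that is listed without a gene name (52918653 to 52918726 and 52918785 to 52918856). They stood at 22.6 and 18.8% with depressed-male RNA and 56.8 and 59.0% with normal-male RNA. The CHH region that spans both, with 132 cytosines, was at 78.8% with depressed-male RNA and 95.6% with normal-male RNA, so its levels were above those of the CpGs within it. In mammals most methylation sits on CpGs, as given above. Bisulfite conversion and read mapping were not checked for this place, so the CHH and CG levels here are given only as deposited. The 2 intronic regions were among the 6 lower CG regions of introns whose nearest lower CG neighbour lay within 1 kb.

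Chromosomes 9 and 10 held most of the members. There were 74 lower intronic regions on chromosome 9 and 81 on chromosome 10, together 155 of 249 (62.2%, 95% exact interval over regions 55.9 to 68.3%). The same chromosomes held 58.1% of the lower regions touching exons or UTRs and 56.8% of those in repeats. Chromosome 2 followed with 25 and chromosome 1 with 15, while chromosomes 3 and 12 held 0, and 1 member lay on an unplaced scaffold. On chromosomes 9 and 10 the median levels were 5.395% with depressed-male RNA and 73.2% with normal-male RNA, and elsewhere 4.73 and 67.3%. CpG density had a median of 3.96 per 100 bp on these chromosomes and of 5.36 elsewhere. No p-value is given, since these chromosomes were picked with their counts known.

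Within that concentration the members were spread out. The nearest other lower member was at a median distance of 268 kb on chromosomes 9 and 10 and of 4569 kb elsewhere. Of 246 lower members with another on the same chromosome, 16 had one within 10 kb and 2 within 1 kb. Counting lower CG regions of every class, the median distance to the nearest was 63.1 kb on chromosomes 9 and 10 and 680 kb elsewhere.

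**Figure D3:**
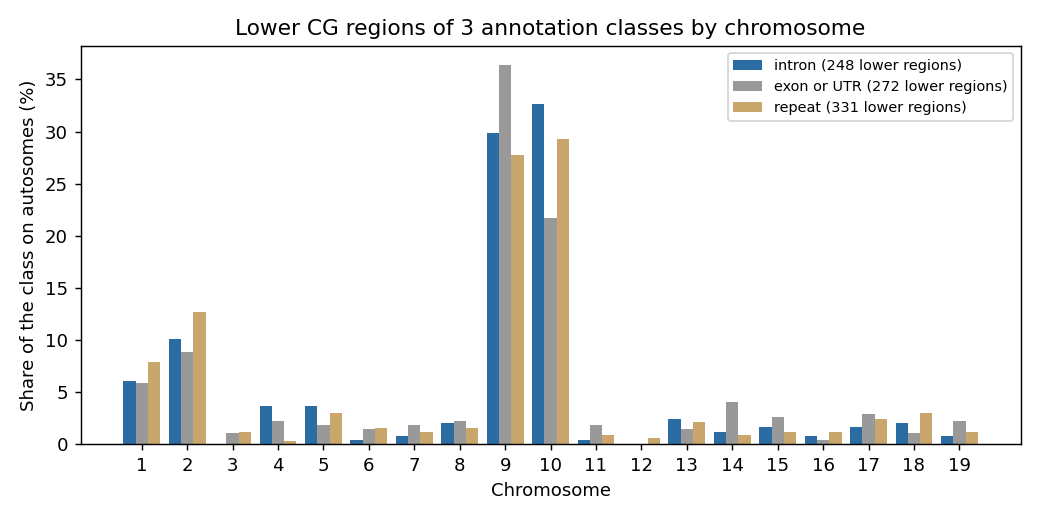
Bars give, for each autosome on the x axis, the share (%) of the lower CG regions of a class on autosomes, with introns in blue (248 regions), exons or UTRs in grey (272) and repeats in tan (331). In all classes chromosomes 9 and 10 stand above the other autosomes, with 74 and 81 intronic regions.

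The deposited table lists 24 members under a promoter as well, and these stood at 3.91% with depressed-male RNA and 69.2% with normal-male RNA (medians), against 5.17 and 71.6% for the lower regions without that entry. Another 14, some of them the same, were listed at a CpG island or its shore, at 3.39 and 68.8%. The promoter entries are those of the deposited annotation. Only 1 member met a promoter window of the RefSeq table. The region of Pde4d, listed under a promoter, lay 191 kb from the nearest start in that table.

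The regions were spread over the whole length of their genes. Each gene was cut into 4 equal stretches from its start, and this could be done for 181 of 228 gene-region pairs with the region inside the gene, those with a strand and start in the RefSeq table. Of the 181, 27.1% fell in the first stretch, then 24.3, 26.0 and 22.7% in the following ones. The median distance of these from the gene's own start was 36.5 kb. The 216 genes listed with a member were long, with a median span of 91.7 kb over 213 genes with a length, against 17.1 kb over 21900 protein-coding genes. Spans over 100 kb made up 46.5% of the former and 11.1% of the latter. Long genes offer more intron, and the part of gene length in any count of genes was not tested. At their own starts, 170 of these genes with a promoter window had a median of 21 CpGs in it, against 13 over 17492 protein-coding genes.

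The deposited table gives a statistic for each region, a score whose name describes a sum over the area. In the lower intronic regions its size ran from 17.3 to 127 in the authors' deposited table, with a median of 27.2. The median was 22.6 in lower regions with 4 CpGs and 58.7 in those with 8 or more. A strong region by this score is thus not the same as a region with a large difference. The strongest region lay in Cog7, which encodes a subunit of a Golgi tethering complex (chromosome 7, 121945029 to 121945437, 19 CpGs in 409 bp), at 9.32% with depressed-male RNA and 55.1% with normal-male RNA. Ptma, the gene of the acidic nuclear protein prothymosin alpha, came next (chromosome 1, 86527263 to 86527385). Its region had the most CpGs, 24 in 123 bp, and stood at 0.615% against 23.5%. Its levels were thus low in both groups, unlike those of the other strong regions. Fam198a, now named Gask1a, followed with 12.4% against 65.1% over 15 CpGs. By size of difference Cog7 ranked 240, Ptma 249 and Fam198a 229 among the 249 lower regions.

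Ipmk encodes an inositol phosphate kinase, and its region (chromosome 10, 71362195 to 71362384) was at 4.11% with depressed-male RNA and 71.2% with normal-male RNA. Fyn, a Src-family tyrosine kinase gene (chromosome 10, 39553631 to 39553778), had the highest depressed level of the 10 strongest regions, 22.4%, with 86.7% in the normal group. Trrap, which encodes a large scaffold of histone acetyltransferase complexes, had 14 CpGs in 53 bp, the densest member, at 4.68% against 54.7%. Myrip links Rab proteins to myosin, and its stronger region was at 7.26% against 71.9%. Arl15, a small GTPase gene, stood at 3.61% against 73.5%. Of the regions named so far in this ranking, Cog7, Ptma, Trrap and Arl15 lay outside chromosomes 9 and 10.

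By size of difference, the 5 leading regions with a named gene were all on chromosomes 9 and 10. A region listed without a gene name on chromosome 9 (117815692 to 117815772) ranked between Cd276 and Samd3. The Tspear and Krtap10-4 region printed above was first. Tle3, which encodes a Groucho-type transcriptional corepressor, was at 1.35% with depressed-male RNA and 85.5% with normal-male RNA, 84.1 points apart. Tmem115, a Golgi membrane protein gene, was at 1.31% against 83.8%, at a CpG island shore. Cd276, which encodes an immune checkpoint ligand (chromosome 9, 58529304 to 58529410), was at 5.395% against 87.1%, and Samd3 at 1.56% against 82.7%. These regions had 4 or 5 CpGs. The longest member, in the scaffold protein gene Cnksr3, spread 4 CpGs over 1004 bp and stood at 14.3% against 76.3%.

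Among the 216 genes, 20 carried more than 1 intronic region, 17 of them on chromosomes 9 and 10. These chromosomes held 62.2% of all lower members, and the place of the 20 genes was not tested against that share. The range of the normal levels within such a gene had a median of 5.90 points and that of the depressed levels 3.10 points. Regions of 1 gene come from the same 6 embryos and are not replicates. Slc9a9, which encodes a sodium-proton exchanger of endosomes, had 3 regions with gaps of 30.2 and 467 kb. Their levels ran from 0.586 to 1.31% with depressed-male RNA and from 68.5 to 78.0% with normal-male RNA. Lingo1, a transmembrane protein gene that restrains axon growth and myelination, had 3, at 1.09 to 3.81% against 59.3 to 72.8%. Ank3, which encodes the ankyrin of the axon initial segment, also had 3, at 5.52 to 8.98% against 70.8 to 76.8%. The depressed levels of Slc9a9 and Ank3 did not overlap, while their normal levels did.

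Fam198a and Myrip had 2 regions each. Those of Fam198a were 7.02 kb apart, at 8.85 and 12.4% with depressed-male RNA and 61.8 and 65.1% with normal-male RNA. Those of Myrip were 69.6 kb apart, at 7.26 and 8.40% against 71.9 and 77.3%. The widest spread of normal levels within a gene was in Plxnc1, a semaphorin receptor gene, with 54.7 and 80.2%, beside depressed levels of 4.72 and 14.5%. Plxnc1 was singled out after its values were seen. The closest pair within a gene, 1.40 kb apart, was in Tle3, at 0.828 and 1.35% against 73.1 and 85.5%. The predicted gene Gm20388 was listed with 2 regions 1584 kb apart.

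**Figure D4:**
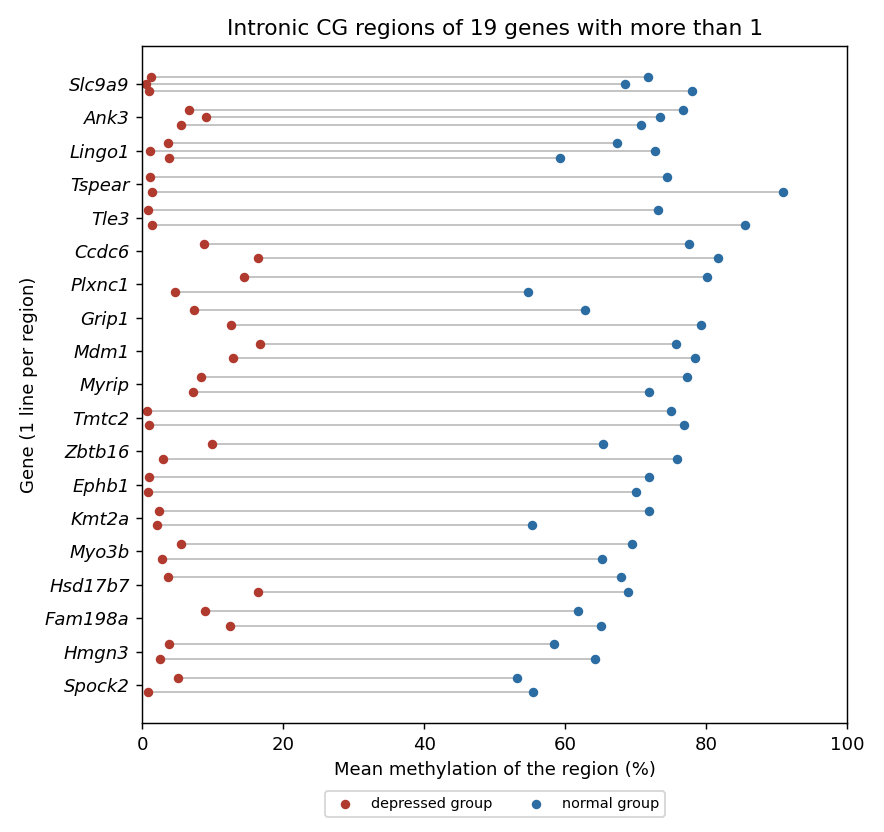
Each line is 1 intronic region of a gene with more than 1, joining the authors' mean level (%) in the depressed group (red) with that in the normal group (blue), for 19 named genes on the y axis. All red points lie left of all blue ones, in regions that were listed as differing between the groups. Slc9a9 keeps to 0.586 to 1.31% in the depressed group, while Plxnc1 spans normal levels of 54.7 to 80.2%.

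Gene lists drawn up with earlier results of these data known were counted for genes with a member, beside 0.973% of all protein-coding genes. All members of these lists were lower in the depressed group, as 249 of 250 members were. The list of neural cell adhesion genes had 5 of 62 genes (8.06%). Besides Lingo1 these were Cadm1, at 11.6% with depressed-male RNA and 79.1% with normal-male RNA, Ntm at 1.13% against 61.1%, Kirrel3 at 8.61% against 74.9%, and Dscaml1 at 10.5% against 74.3%, the last outside the rule for named genes. All of them encode cell-surface proteins with immunoglobulin or leucine-rich repeat domains, and all lie on chromosome 9. Axon guidance had 3 of 72 genes (4.17%) with 5 regions. Ephb1, an ephrin receptor gene, had 2 regions at 0.774 and 1.03% against 70.02 and 71.9%, the lowest depressed levels of this list. Ntng2, a netrin family gene, stood at 16.9% against 78.6%.

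The extracellular matrix and ADAM protease list had 8 of 159 genes (5.03%). They included all 3 collagen VI chain genes that neighbour each other on chromosome 9. Col6a6 was at 8.27% with depressed-male RNA and 70.4% with normal-male RNA, Col6a4 at 4.22% against 74.8% and Col6a5 at 8.23% against 64.8%, the latter pair named after their values were seen. Col9a3, a cartilage collagen gene on chromosome 2, was at 2.58% against 63.8%. The metalloprotease gene Adamts15 was at 1.15% against 70.6%, and Thsd4, whose product binds fibrillin, at 3.75% against 73.8%.

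Of 226 genes in the list of voltage-gated and ligand-gated channels 2 had a member (0.885%). These were Kcnma1, which encodes a calcium-activated potassium channel, at 4.51% with depressed-male RNA and 59.4% with normal-male RNA, and the cation channel gene Trpm2 at 2.79% against 72.6%. The cyclic nucleotide-gated channel gene Cnga3, which the list leaves out, had one too (5.27% against 79.8%). The list of solute carriers had 6 of 337 genes (1.78%). It leaves out symbols that end in a letter, such as Slc5a4b (8.23% against 76.0%). Besides Slc9a9, the chloride cotransporter genes Slc12a1 and Slc12a7 stood at 4.18% against 62.8% and 16.7% against 78.5%. Slc22a14 was listed, together with Xylb, for a region (4.02% against 64.7%) that lies 165 kb from the RefSeq span of Slc22a14, so its place in the list rests on the deposited annotation.

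The signalling and chromatin lists named here had 1 or 2 genes with a member each. Their shares ran from 1.43 to 3.17%, beside 0.973% of all protein-coding genes, and such small counts were not tested. The TGF-beta and BMP list had 2 of 63 genes, the activin receptor gene Acvr2b at 21.98% with depressed-male RNA and 77.7% with normal-male RNA and the signal transducer gene Smad3 at 4.67% against 70.4%. Sfrp1, a secreted Wnt antagonist gene, was the 1 of 70 Wnt pathway genes, at 2.22% against 46.7%, and its normal level was the second lowest of the lower members after Ptma. Foxo3, a transcription factor gene downstream of AKT, was the 1 of 49 in its list (5.27% against 69.3%). Histone methylation genes had 2 of 74. Kmt2a, which encodes a histone H3 lysine methyltransferase, had regions at 2.07 and 2.39% against 55.3 and 71.8%, and Prmt2, an arginine methyltransferase gene, stood at 8.69% against 85.9%.

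Single genes came from another 3 lists. Zfp236 was 1 of 394 genes named Zfp (13.05% with depressed-male RNA and 83.9% with normal-male RNA), a list that leaves out zinc finger genes with other names. Rnf26 was 1 of 265 ubiquitin ligase genes (3.65% against 65.8%). Its region lay 83 bp outside the RefSeq span of Rnf26, so its place in the list rests on the deposited annotation. Trappc9 was 1 of 60 imprinted genes (7.002% against 64.9%), a gene reported to be imprinted in brain. Of the 19 lists, 6 had 0 genes with a member. These were MAP kinase cascade genes (0 of 77), nuclear receptors (0 of 47), the methylation machinery (0 of 30), blastocyst lineage and pluripotency genes (0 of 47), monoamine, stress hormone and neurotrophin genes (0 of 65) and small RNA pathway genes (0 of 30). With 0.973% of all genes listed, 0 of such short lists is not set apart from other genes.

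The protein domains in the deposited annotation give another grouping, made after the table had been seen. Of 211 genes with a domain entry, 13 had an immunoglobulin-like fold (6.16%) and 10 a protein kinase domain (4.74%). Among the other 3727 genes of the deposited table with a domain entry the shares were 4.94 and 3.89%, so neither is a result about the members. Beside Fyn, Ephb1 and Acvr2b, the kinases were Camk1d (4.97% with depressed-male RNA against 70.7% with normal-male RNA), Cdk17 (7.18% against 71.4%), Cdk19 (11.04% against 75.6%), Prkce (3.22% against 62.6%), Stk39 (6.32% against 71.9%), Ulk4 (5.17% against 76.9%) and the motor protein gene Myo3b, with 2 regions at 2.83 and 5.57% against 65.2 and 69.4%. All of these regions were lower, with normal levels above 60%.

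Some genes with an intronic CG region carried listed regions of another context as well. Of the 216 genes, 99 had at least 1 CHG or CHH region, a share that was not counted for other genes. A lower CHG region was listed for 35 (16.2%) and a higher one for 1 (0.463%), against 20.2 and 5.26% of the 361 genes listed with other CG regions only. A lower CHH region was listed for 38 (17.6%) and a higher one for 72 (33.3%), against 20.2 and 18.6%. The genes with members are long, and the part of gene length in these shares was not tested.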

How the data were processed

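One table of regions was used. The submitters' processing notes name build mm10, Bismark, SAMtools and Trim Galore 0.3.3. Not given in the sources used here are the caller of the regions, its cut-offs and coverage filter, and how embryos were combined. Per the file headers, the authors deposited each group's mean methylation as a fraction, multiplied here to percent, the difference of these fractions, and a region statistic, a score. Depth is unknown and intervals over regions describe the list only. The table's 18732 entries were collapsed to distinct regions by chromosome, start, end and context, and leaving out X and Y removed 0 intronic regions.

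The members, gene lists and tests were chosen with earlier results of these data known. Named genes were the 10 strongest by statistic, the 5 largest differences, the 5 genes with most regions, the longest region, the one with most CpGs, higher regions, up to 4 genes per list, and overlaps with other contexts. Predicted genes were passed over, and some named genes and 1 list are not reported here. Of 216 gene names, 213 matched RefSeq (GRCm38). Class medians per autosome were compared with exact two-sided sign tests (SciPy 1.17.1), Benjamini-Hochberg adjusted over 6. The procedure was run on simulated regions drawn independently, which does not cover dependence between neighbouring regions. P-values treat autosomes as units and compare classes of listed regions, not embryos.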

Additional observations from a re-analysis of the deposited data

How the results depend on the processing

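Of 96 values under alternative settings, 69 kept their direction, their side of the threshold or their range, and 27 did not. With a difference of at least 50 points, 0% of lower members overlapped a CHG or CHH region. With at least 6 CpGs (70 members) the median normal level was 67.0%, the median difference -61.5 points, CpG density 5.03 per 100 bp, the share on chromosomes 9 and 10 52.9% and the number of genes 68. With a statistic at or above the CG median the median difference was -66.2 points and the number of genes 102. Without chromosomes 9 and 10 the normal level was 67.3%, the difference -62.3 points, the density 5.36 per 100 bp and the number of genes 80, against 215. The fall in genes follows from fewer regions. The cause of the other shifts was not tested.

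Intronic CpG density against exons or UTRs passed the sign test in 3 settings. Introns were higher on 1 of 13 autosomes with at least 6 CpGs, 2 of 17 with 1 region per 100 kb and 0 of 17 at up to 300 bp. Sign tests far from the threshold changed direction. Against exons or UTRs, the normal level was higher on 7 of 15 autosomes and the depressed level on 6 of 15 with at least 50 points, and the depressed level on 8 of 17 with 1 region per 100 kb and 7 of 17 at up to 300 bp. Against repeats, the normal level was higher on 7 of 17 with at least 50 points, 5 of 12 with at least 6 CpGs, 5 of 12 with the stronger statistics and 7 of 15 without chromosomes 9 and 10. The depressed level was higher on 4 of 12 with at least 6 CpGs. The density was higher on 11 of 17 with at least 50 points, 7 of 12 with the stronger statistics and 9 of 16 with intron entries only. No paired analysis was possible because the table holds group means only, and replicates could not be left out for the same reason.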

Other observations

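Some members outside the lists share a known role, and they were picked after their values were seen, so their number carries no weight. Genes known for the hair cells of the inner ear included Myo6, the gene of a motor of the stereocilia base (8.45% with depressed-male RNA and 75.6% with normal-male RNA), Pcdh15, which encodes a tip-link cadherin (9.91% against 73.9%), and Tmie, part of the mechanotransduction channel (11.5% against 72.9%). Lysosomal genes were Psap, the precursor of saposins (8.44% against 64.5%), the beta-galactosidase gene Glb1 (4.14% against 68.6%) and the cholesterol transporter gene Npc1 (13.7% against 66.9%). Among genes of transcription factors, E2f3 stood at 2.32% against 63.9%, Elf1 at 1.91% against 62.2% and Sox13 at 4.79% against 68.0%. Igf1, the insulin-like growth factor gene on chromosome 10, stood at 2.12% against 69.0%.

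The member on an unplaced scaffold had the highest depressed level of the lower regions, 30.6%, against 64.8%. Among members with a gene symbol, Dip2a followed with 26.8% against 70.1%.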
